A study of Drosophila melanogaster with 8 samples.

Results

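The fly gene ovo encodes the zinc finger factor Shavenbaby, which sets where epidermal cells of the Drosophila embryo make denticles, and 9 genes that build these structures were followed with it. The 10 genes were taken by symbol from the 17321 genes of the deposited tables: ovo, the actin and hair genes sha, mwh and f, and the zona pellucida (ZP) domain genes m (miniature), dyl, neo, nyo, tyn and pio. Each symbol was found in both tables.

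Denticles are small cuticular hooks that grow from actin-rich extensions at the apical surface of epidermal cells late in embryogenesis. Shavenbaby is present where EGF receptor signalling is active and is held off by Wingless signalling. Small peptides from the gene tal (also called pri), acting with the ubiquitin ligase Ubr3, turn it from a repressor into an activator. It then switches on genes for actin remodelling and for ZP domain proteins, which are membrane-anchored proteins of the apical extracellular matrix that shape distinct regions of the denticle. The Sox factors SoxN and Dichaete (D) are also known to promote denticle formation. The gene ovo has germ line transcripts as well, and the gene totals in the deposited tables do not separate them from the Shavenbaby transcript.

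Whole embryos of stages 8 to 16 were sequenced as 8 RNA libraries, 2 for each of 4 groups in 2 experiments, with 50 mg of frozen embryos per collection. All groups carried da-Gal4, a driver active throughout the embryo. In the first experiment, Quad embryos carried UAS transgenes for 4 neural factors (ase, SoxN, wor and Kr), and the control, Ctrl, was da-Gal4 crossed to the wild-type strain OregonR. In the second, QuadD embryos carried ase-Vp16, SoxN-EnR and wor-EnR, altered forms that activate or repress, together with unaltered Kr, and their control, Ctrl-D, was again da-Gal4/OregonR. The strain labels of Quad and QuadD name no OregonR chromosome, so strain background and transgenes cannot be told apart. The labels call the replicates biological. Each experiment was sequenced in its own lane, so lane, collection and experiment cannot be told apart either.

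The deposited read counts covered only part of the reads and summed to 2765722 to 6740835 per library, so depth is uncertain for most genes. Levels are given as RPKM, a read density corrected for gene length and sequencing depth, which allows levels of different genes to be set side by side. Fold changes were computed from log2(RPKM + 1), so for genes near or under 1 RPKM they come out smaller than the ratio of the RPKM values. A gene was called changed when the adjusted p of limma's moderated test was under 0.05. Among the transgene genes, Quad libraries had higher ase, wor and Kr, with log2 fold changes of 1.77 ± 0.12 (SE), 2.00 ± 0.10 and 1.33 ± 0.15, while SoxN, at 0.35 ± 0.12, missed the threshold (adjusted p = 0.0536). In QuadD, ase, wor and SoxN were higher, by 1.60, 2.08 and 0.41 on the log2 scale, and Kr was not called at 0.066 ± 0.11 (adjusted p = 0.637). The call of SoxN turned on single libraries: in QuadD it was lost without replicate 1 or replicate 2 (adjusted p = 0.0978 and 0.0787), and in Quad it was made without replicate 1 (0.50, adjusted p = 0.00529).

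Every one of the 10 genes fell in both experiments. Against Ctrl, Quad embryos kept from 1.76% (sha) to 35.4% (ovo) of the control RPKM, and against Ctrl-D, QuadD embryos kept from 1.02% (dyl) to 37.7% (f). The calls were 10 lower of 10 in each experiment. In Quad sha, and in QuadD sha, m and dyl, reached the 1 RPKM needed for testing in control libraries alone. These could be called in the lower direction alone, so their calls add no support. Among all genes tested, 22.6% were called lower and 24.9% higher in Quad, and 27.7% lower and 27.4% higher in QuadD. The median log2 fold change of the 10 genes was -3.35 in Quad and -3.38 in QuadD, beside 0.053 and 0.034 over all genes tested. Libraries of the misexpression and control groups overlapped for none of the 10 genes. That held, in the lower direction, for 35.6% of all tested genes in Quad and 39.1% in QuadD. For sha in Quad, and for sha, m and dyl in QuadD, the filter fixed the lack of overlap, so these genes add no support to it.

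**Figure D1:**
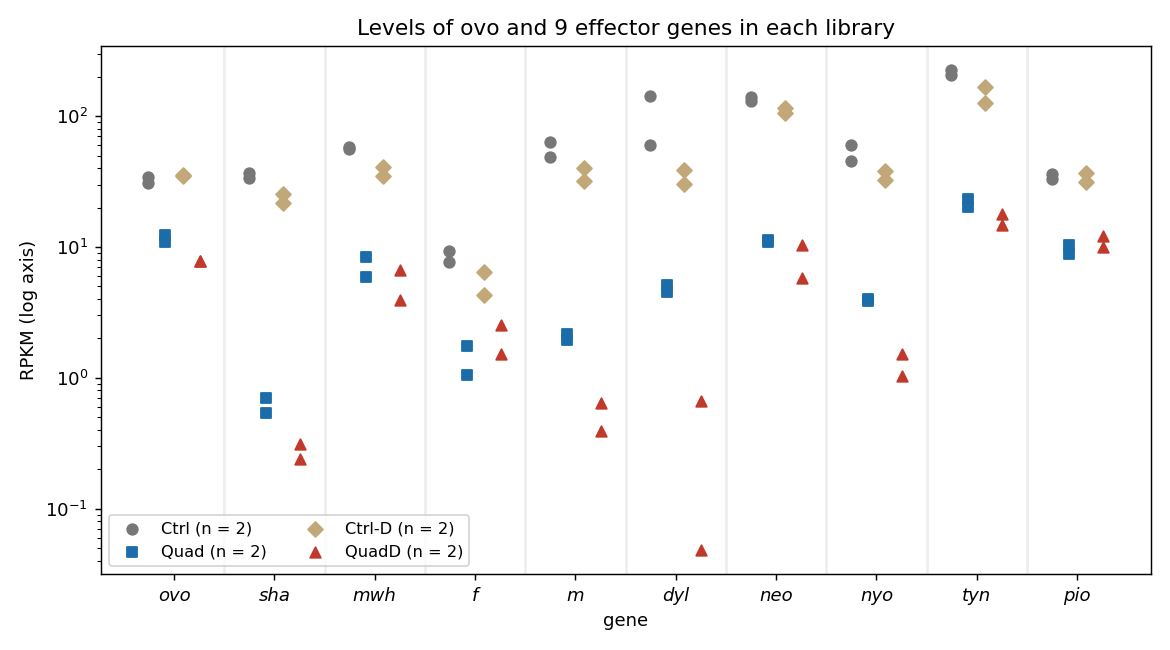
RPKM (log axis) of ovo and the 9 effector genes in each of the 8 libraries, with 1 point per library and 2 libraries per group. The Quad and QuadD points lie below the points of their own control for each gene, and sha falls furthest in Quad, to 0.542 and 0.699 RPKM.

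For ovo itself, Ctrl libraries held 34.3 and 31.0 RPKM and Quad libraries 10.8 and 12.3 RPKM. Ctrl-D libraries held 35.3 and 34.8 RPKM and QuadD libraries 7.75 and 7.81 RPKM. The 4 control libraries were close to each other, and all 4 misexpression libraries lay well below them. The level in Quad was 2.82 times lower than in Ctrl, a log2 fold change of -1.42 ± 0.15 (SE, 2 and 2 libraries, limma adjusted p = 0.000905). In QuadD it was 4.50 times lower, at -2.04 ± 0.12 (limma adjusted p = 0.000111). Counted from the lowest fold change, ovo had rank 818 of the 10436 genes tested in Quad, and its fall was the smallest of the 10 genes there. Of 6 germ line markers (nos, vas, pgc, aub, tud and gcl) none was called lower in either experiment, and 2 were called higher in Quad and 3 in QuadD. Over all genes tested, 22.6% were called lower and 24.9% higher in Quad, and 27.7% and 27.4% in QuadD. Under RLE scaling or without Quad replicate 1, tud was called lower in Quad. The summed RPKM of these markers was 119.6 to 133.3 in Ctrl, 127.1 to 130.7 in Quad, 109.7 to 110.6 in Ctrl-D and 130.6 to 143.0 in QuadD. Much of these sums came from gcl and tud, while pgc, a gene of the pole cells, rose from a mean of 2.17 to 10.2 RPKM in Quad (1.86 ± 0.34, limma adjusted p = 0.00645) and from 2.16 to 15.6 RPKM in QuadD (2.37 ± 0.21, limma adjusted p = 0.000469). In the Ensembl annotation the exons of ovo overlap those of an antisense RNA, lncRNA:CR44833, and the sources used here do not say whether strand was used in counting.

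The actin and hair genes sha, mwh and f lie downstream of ovo. The gene sha (shavenoid) is needed for denticles and for the hairs of adult cells. It held 36.8 and 33.7 RPKM in Ctrl but 0.699 and 0.542 RPKM in Quad. In the second experiment it held 21.8 and 25.6 RPKM in Ctrl-D and 0.240 and 0.310 RPKM in QuadD. Both misexpression groups were under 1 RPKM, where control embryos had over 20. The log2 fold change was -4.48 ± 0.18 in Quad (limma adjusted p = 6.26e-05) and -4.27 ± 0.17 in QuadD (limma adjusted p = 5.46e-05). In both experiments sha passed the filter through the controls alone, so it could be called in the lower direction alone and its calls add no support.

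The gene mwh (multiple wing hairs) acts below the planar polarity proteins to restrict where actin extensions start. Ctrl libraries had 56.5 and 57.8 RPKM and Quad libraries 8.37 and 5.88 RPKM. Ctrl-D libraries had 34.9 and 40.6 RPKM and QuadD libraries 6.64 and 3.95 RPKM. Between 12.5% and 14.0% of the control level was left, with log2 fold changes of -2.86 ± 0.18 in Quad (limma adjusted p = 0.000203) and -2.65 ± 0.22 in QuadD (limma adjusted p = 0.000381). The gene f (forked) encodes a protein that bundles actin filaments in bristles and denticles, and it was the lowest of the 10 in control embryos. Its RPKM was 7.63 and 9.34 in Ctrl against 1.76 and 1.06 in Quad, and 4.31 and 6.41 in Ctrl-D against 1.51 and 2.53 in QuadD. Its log2 fold changes were -1.99 ± 0.23 in Quad (limma adjusted p = 0.00135) and -1.08 ± 0.26 in QuadD (limma adjusted p = 0.0147). The QuadD call of f rests on single libraries: without QuadD replicate 1 the log2 fold change was -0.83 (limma adjusted p = 0.0633), and without Ctrl-D replicate 2 it was -0.84 (limma adjusted p = 0.0806). The exons of f overlap those of CG8664 on the opposite strand.

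The 6 ZP domain genes as a group had a median log2 fold change of -3.47 in Quad and -3.83 in QuadD. The most abundant of the 10 genes, tyn (trynity), held 208 and 226 RPKM in Ctrl and 23.2 and 20.3 RPKM in Quad. It held 127 and 166 RPKM in Ctrl-D and 17.8 and 14.6 RPKM in QuadD. About 10.02% and 11.1% of the control level remained, with log2 fold changes of -3.26 ± 0.11 and -3.09 ± 0.16 (limma adjusted p = 3.80e-05 and 8.74e-05). Exons of tyn overlap those of RhoGAP1A on the same strand and of CG17707 and lncRNA:CR45473 on the other, so reads of these genes may have been shared. The next most abundant, neo (neyo), held 130.3 and 139.6 RPKM in Ctrl and 11.3 and 10.8 RPKM in Quad. It held 106.2 and 115.4 RPKM in Ctrl-D and 10.4 and 5.81 RPKM in QuadD. Its log2 fold changes of -3.49 ± 0.11 and -3.66 ± 0.24 (limma adjusted p = 3.54e-05 and 0.000167) were close to those of tyn, and tyn and neo kept the first and the second place in both controls.

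The gene nyo (nyobe) held 45.8 and 60.5 RPKM in Ctrl against 4.03 and 3.84 RPKM in Quad, and 32.4 and 37.8 RPKM in Ctrl-D against 1.53 and 1.03 RPKM in QuadD. The log2 fold changes were -3.44 ± 0.18 and -3.99 ± 0.18 (limma adjusted p = 0.000111 and 6.63e-05). Miniature (m), which also organizes the wing surface, held 49.0 and 63.9 RPKM in Ctrl against 2.16 and 1.95 RPKM in Quad. It held 32.2 and 40.1 RPKM in Ctrl-D against 0.646 and 0.391 RPKM in QuadD. Both genes therefore kept under 8% of the control level in each experiment, with m at 3.64% and 1.44%. The log2 fold changes of m were -4.22 ± 0.19 and -4.61 ± 0.19 (limma adjusted p = 7.72e-05 and 5.46e-05). In QuadD m passed the filter through Ctrl-D alone, so its call there could be in the lower direction alone and adds no support. Of the 10 genes, m alone had deposited counts proportional to RPKM in every library: 2271 and 2871 reads in Ctrl, 97 and 92 in Quad, 723 and 861 in Ctrl-D, and 35 and 9 in QuadD. The exact Poisson interval, which covers counting error only, ran from 24.4 to 48.7 reads for QuadD replicate 1 and from 4.12 to 17.1 for replicate 2.

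The gene dyl (dusky-like), which is required for denticle and bristle shape, varied more between Ctrl replicates than the other 9 genes. Ctrl libraries held 60.3 and 144 RPKM (a mean of 102 ± 59.0, SD, n = 2) and Quad libraries 4.56 and 5.08 RPKM. Ctrl-D libraries held 30.5 and 38.7 RPKM and QuadD libraries 0.659 and 0.048 RPKM. The lowest control library was still over 10 times the highest misexpression library in each experiment. The log2 fold change was -4.02 ± 0.38 in Quad (limma adjusted p = 0.000667) and -4.74 ± 0.26 in QuadD (limma adjusted p = 0.000100). The QuadD call of dyl could be in the lower direction alone, as dyl passed the filter through Ctrl-D alone, and it adds no support. The gene pio (papillote), which with Dumpy anchors epidermal cells to the apical matrix, fell least among the ZP domain genes. It held 33.0 and 36.3 RPKM in Ctrl against 8.90 and 10.4 RPKM in Quad, and 31.5 and 37.1 RPKM in Ctrl-D against 12.1 and 9.99 RPKM in QuadD. Quad kept 27.8% and QuadD 32.2% of it, with log2 fold changes of -1.75 ± 0.15 and -1.55 ± 0.15 (limma adjusted p = 0.000535 and 0.000568).

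**Figure D2:**
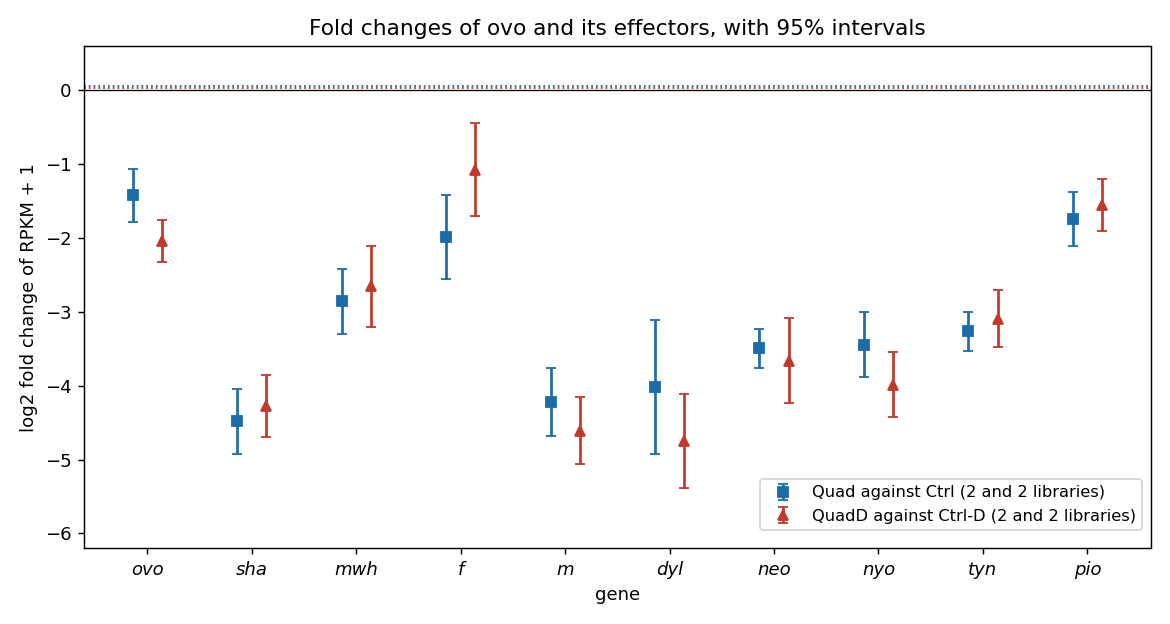
Log2 fold change of RPKM + 1 for each gene, Quad against Ctrl and QuadD against Ctrl-D, with 95% confidence intervals from limma (2 and 2 libraries each). Dotted lines mark the medians of all tested genes, 0.053 and 0.034, and each interval lies below 0; f in QuadD, from -1.70 to -0.45, comes nearest.

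The order of the levels changed with the misexpression. In Ctrl it ran tyn, neo, dyl, mwh, m, nyo, sha, pio, ovo, f, and the replicate ranges of neo and dyl, mwh and m, m and nyo, sha and pio, and pio and ovo overlapped. In Ctrl-D it ran tyn, neo, mwh, m, nyo, ovo, dyl, pio, sha, f, with each neighbour from mwh to pio overlapping the next. In Quad it ran tyn, ovo, neo, pio, mwh, dyl, nyo, m, f, sha, where the ranges of ovo and neo overlapped. In QuadD it ran tyn, pio, neo, ovo, mwh, f, nyo, m, dyl, sha, with overlaps between pio and neo, neo and ovo, f and nyo, m and dyl, and dyl and sha. So ovo moved from the ninth and the sixth place in the controls to the second and the fourth, and sha came last in both misexpression groups.

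The unaltered and the altered factor combination were compared by the difference of both effects, QuadD against Ctrl-D minus Quad against Ctrl, in a limma fit of all 8 libraries. None of the 10 genes passed the threshold, beside 2.7% of all genes tested, and 2 of the 10, ovo and f, had an unadjusted p under 0.05. For ovo the difference was -0.62 ± 0.17 (95% interval -1.01 to -0.22, limma adjusted p = 0.121), a larger fall in QuadD. For f it was 0.91 ± 0.37 (interval 0.065 to 1.76, limma adjusted p = 0.275), a smaller fall in QuadD. The intervals of the other genes were wide enough to hold differences in either direction: that of dyl ran from -1.92 to 0.46, that of nyo from -1.14 to 0.052 and that of m from -1.002 to 0.23. The remaining differences were 0.20 ± 0.31 for mwh, 0.21 ± 0.24 for sha, 0.17 ± 0.21 for tyn, 0.19 ± 0.21 for pio and -0.17 ± 0.29 for neo.

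The driver-only controls of both experiments were set against each other in the same fit. None of the 10 genes was called between Ctrl and Ctrl-D (limma), beside 1.23% of all genes, and 6 of the 10 had an unadjusted p under 0.05. Their median log2 difference was 0.58, higher in Ctrl, beside -0.0096 over all genes. The largest was that of dyl, at 1.41 ± 0.37 (limma adjusted p = 0.0810), and without Ctrl replicate 1 it was 2.03 (limma adjusted p = 0.0267). For tyn the difference was 0.58 ± 0.15 (limma adjusted p = 0.0766), and leaving out Quad replicate 1 or replicate 2 brought its adjusted p to 0.0490 and 0.0488. By contrast ovo and pio, at -0.10 ± 0.12 and 0.019, had close levels in both controls. Driver-only embryos of the first experiment thus held more of 8 effector genes at similar ovo levels, by differences that did not pass the threshold. This was not particular to the effectors. Medians of lists described below were also higher in Ctrl for further ZP (0.63), epidermal (0.59), cuticle (0.46), neuronal (0.76) and muscle genes (0.43). They were lower for neuroblast (-0.25), early patterning (-0.32), upstream patterning (-0.15), glial (-0.086) and actin and bristle genes (-0.074). The other lists lay from 0.016 to 0.13.

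Further ZP domain genes outside the 10 also fell. Of the 7 listed, 6 were tested and 6 were called lower in each experiment, beside 22.6% of all genes tested in Quad and 27.7% in QuadD. Their medians were -2.55 in Quad and -1.86 in QuadD, beside 0.053 and 0.034 over all genes tested. Of the 6 tested genes, cyr and dy were under 1 RPKM in each Quad and QuadD library. Both passed the filter through the controls alone, so they could be called in the lower direction alone and their calls add no support. The seventh, zye, stayed at or below 0.539 RPKM in all 8 libraries and was not tested. The gene mey (morpheyus), another denticle ZP gene, held 103.2 and 119.6 RPKM in Ctrl against 3.35 and 2.41 RPKM in Quad, and 64.4 and 84.3 RPKM in Ctrl-D against 2.81 and 2.10 RPKM in QuadD. Its log2 fold changes, -4.86 ± 0.18 and -4.44 ± 0.18, were close to those of the most reduced of the 10 genes. The gene dy (dusky) had log2 fold changes of -3.15 ± 0.20 and -2.69 ± 0.19, and nompA, a matrix gene of sensory organs, of -2.97 ± 0.24 and -2.02 ± 0.17. Smaller log2 fold changes were those of cyr (-2.13 ± 0.22 and -1.10 ± 0.19), dpy, the gene of Dumpy (-1.49 ± 0.21 and -1.16 ± 0.21), and qsm (-1.35 ± 0.15 and -1.70 ± 0.21). In the Ensembl gene order, mey lies next to nyo with no protein-coding gene between them, dy is separated from m by 1 gene and nompA from sha by 2.

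Not each known Shavenbaby target moved this way. The gene sn, which encodes the actin bundler fascin, held 156 and 163 RPKM in Ctrl and 179.6 and 168.4 RPKM in Quad, with no call (log2 fold change 0.13 ± 0.09, limma adjusted p = 0.276). In QuadD it was lower, at 126 and 138 RPKM against 168 and 162 in Ctrl-D (-0.32 ± 0.08, limma adjusted p = 0.0197). That call was lost without either QuadD library. The actin nucleation factor WASp was not called in either experiment (-0.24 ± 0.12 and -0.12 ± 0.11, limma adjusted p = 0.149 and 0.372). The pigment gene y (yellow) was called higher, by 0.81 ± 0.22 and 1.09 ± 0.23 (limma adjusted p = 0.0267 and 0.00884), from low control levels of 1.28 and 1.15 RPKM. The Quad call of y was lost without Quad replicate 1 or either Ctrl library, and its QuadD call without QuadD replicate 1.

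Among 12 actin and bristle genes, 2 were called lower and 4 higher in Quad, with a median of 0.13. In QuadD 4 were lower and 3 higher, with a median of 0.16. Over all genes tested, 22.6% were called lower and 24.9% higher in Quad, and 27.7% and 27.4% in QuadD, so the QuadD counts were near these shares. The myosin gene ck (crinkled) was lower in both, at -2.04 ± 0.15 and -2.03 ± 0.14, with 51.9 RPKM in Ctrl and 11.9 RPKM in Quad. The bristle gene jv (javelin) was lower too, at -2.36 ± 0.19 and -1.57 ± 0.19, but it passed the filter through the controls alone, with 0.299 RPKM or less in the misexpression libraries. Fim, which encodes the actin bundler fimbrin, was lower in QuadD, at -0.57 ± 0.09. The actin turnover gene capt rose in both, by 0.72 ± 0.10 and 1.13 ± 0.09, and tsr (cofilin) rose in Quad by 0.60 ± 0.09. Under the scaling of RLE the Quad call of sqh was lost, leaving 3 higher, and under quantile normalization 5 were higher in each experiment. Without either Ctrl library jv missed the filter, leaving ck as the one gene lower in Quad, and without Ctrl replicate 2 the number higher was 2.

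Of 11 planar polarity genes, 5 were called lower and 1 higher in Quad, and 6 lower and 2 higher in QuadD, with medians of -0.41 and -0.38. The shares over all genes were 22.6% lower and 24.9% higher in Quad, and 27.7% and 27.4% in QuadD. The single Quad call in the higher direction, dsh, was lost under both other scalings and without Quad replicate 2 or either Ctrl library. In QuadD the call of dsh was lost under RLE scaling and without either QuadD library or Ctrl-D replicate 2, leaving 1 higher, and without Ctrl-D replicate 1 there were 3 higher. The cadherin genes ft and ds were lower in both, at -1.63 ± 0.14 and -1.13 ± 0.14 in Quad and at -1.67 ± 0.14 and -1.37 ± 0.12 in QuadD. The genes in and frtz, which act directly above mwh in the wing, were lower in both experiments. They were at -1.22 ± 0.22 and -0.92 ± 0.17 in Quad and at -1.06 ± 0.18 and -0.91 ± 0.13 in QuadD. The gene fy of the same list was called in neither, at 0.043 ± 0.16 in Quad and -0.30 ± 0.12 in QuadD. Under RLE scaling fy was called lower in QuadD.

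**Figure D3:**
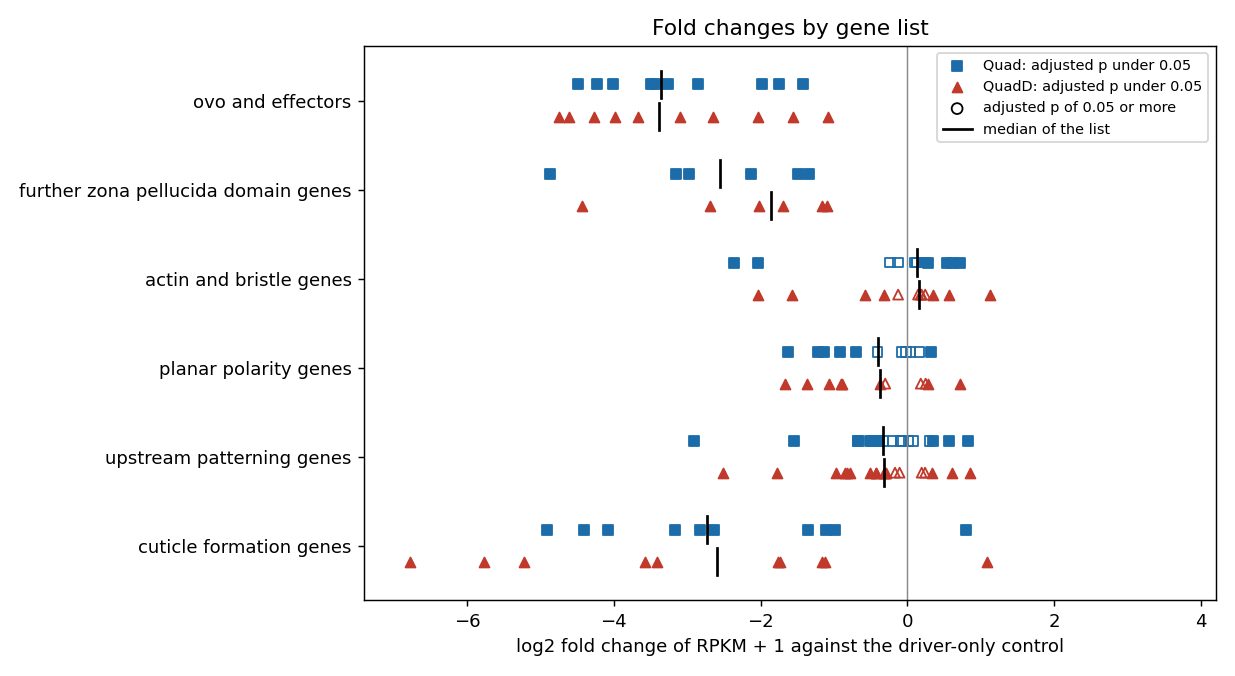
Log2 fold change of RPKM + 1 of each tested gene of 6 lists, Quad against Ctrl and QuadD against Ctrl-D. Filled points passed limma's threshold and open points did not, and a bar marks the list's median: -3.35 and -3.38 for ovo and its effectors, near 0 for the actin and bristle genes (0.13 and 0.16).

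Upstream of ovo, 19 patterning genes were counted. In Quad 8 were called lower and 3 higher (median -0.33), and in QuadD 12 were lower and 3 higher (median -0.31). The shares over all genes were 22.6% lower and 24.9% higher in Quad, and 27.7% and 27.4% in QuadD. Without either Ctrl library 3 were lower in Quad, and without QuadD replicate 1 or replicate 2 there were 7 and 6 lower in QuadD. The number higher was 1 in Quad without Ctrl replicate 1 and 1 in QuadD without QuadD replicate 2. The largest change was that of tal, whose row tal-1A held 325 and 288 RPKM in Ctrl and 35.4 and 44.6 RPKM in Quad. In the second experiment it held 284 and 299 RPKM in Ctrl-D and 46.2 and 54.4 RPKM in QuadD. The log2 fold changes of this row were -2.91 ± 0.14 in Quad (limma adjusted p = 7.91e-05) and -2.52 ± 0.10 in QuadD (limma adjusted p = 5.46e-05). The tables list tal in 4 rows, and each was called lower in both experiments. In Quad the rows tal-2A, tal-3A and tal-AA had log2 fold changes of -2.71, -2.99 and -3.10, beside -1.42 for ovo. In QuadD they had -1.56 ± 0.31, -2.58 ± 0.32 and -2.17 ± 0.15, on both sides of the -2.04 of ovo. Ubr3, which acts with these peptides, was lower by a smaller amount, at -0.44 ± 0.12 and -0.31 ± 0.10 (limma adjusted p = 0.0279 and 0.0398), and its calls were lost without either Ctrl library in Quad and without either QuadD library or Ctrl-D replicate 2, and under quantile normalization, in QuadD.

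Of the signalling genes, Egfr was lower in Quad, at -0.67 ± 0.10, and its ligand gene spi was higher by 0.82 ± 0.12. QuadD went the same way, at 47.0 against 84.3 RPKM for Egfr and 605 against 337 RPKM for spi. Ser, a Notch ligand gene, was lower, at -1.54 ± 0.15 in Quad and -1.77 ± 0.18 in QuadD. The EGF target and effector gene pnt was lower in Quad, at -0.39 ± 0.10, and in QuadD, at -0.79 ± 0.09. Its Quad call was lost without either Ctrl library. For wg the log2 fold change was 0.016 in Quad (limma adjusted p = 0.944) and 0.33 ± 0.09 in QuadD (limma adjusted p = 0.0220), a call that was lost under RLE scaling and without either QuadD library. The Sox gene D moved in opposite directions: it was higher in Quad, at 162 against 108 RPKM (0.56 ± 0.13, limma adjusted p = 0.0136), and lower in QuadD, at 93.9 against 185 RPKM (-0.97 ± 0.10, limma adjusted p = 0.000849). The Quad call of D was lost without Ctrl replicate 1 (0.53, limma adjusted p = 0.0536).

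Genes of cuticle formation, the step that follows denticle outgrowth, were 9 lower and 1 higher of 10 tested in each experiment. Their medians were -2.73 in Quad and -2.59 in QuadD. Beside these counts, 22.6% of all genes tested were called lower and 24.9% higher in Quad, and 27.7% and 27.4% in QuadD. The gene called higher was y. In QuadD, knk and ple passed the filter through Ctrl-D alone, so they could be called in the lower direction alone. The chitin deacetylase genes verm and serp fell, with log2 fold changes of -4.40 ± 0.16 and -4.07 ± 0.19 in Quad and of -5.76 ± 0.22 and -5.22 ± 0.19 in QuadD. The gene ect fell, at -4.91 ± 0.22 and -6.78 ± 0.15. The chitin synthase gene kkv was at -3.17 ± 0.21 in Quad, and held 1.60 RPKM in QuadD against 26.6 in Ctrl-D. CrebA, a regulator of secretion, was at -0.98 ± 0.09 in Quad and -1.77 ± 0.09 in QuadD. Ddc, at or below 1.40 RPKM in each library, was not tested.

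In bulk libraries, fewer epidermal cells and less RNA per epidermal cell cannot be told apart. Markers of the epidermis moved with ovo and its effectors: of 7, 6 were tested and 6 were called lower in each experiment. Across all genes tested, 22.6% were called lower in Quad and 27.7% in QuadD. All 7 epidermal markers are also in the cuticle list, so both counts rest on the same genes. In QuadD, knk and ple could be called in the lower direction alone, so their calls add no support. Without either Ctrl-D library both missed the filter. The QuadD call of ple was also lost under quantile normalization and without QuadD replicate 2. The epidermal regulator grh was at -1.11 ± 0.10 in Quad and -1.16 ± 0.09 in QuadD, smaller falls than those of verm and serp. Their summed RPKM was 738 to 965 in Ctrl, 74.2 to 85.1 in Quad, 502.1 to 670.4 in Ctrl-D and 42.6 to 49.7 in QuadD. Most of the control sums came from verm and serp, with 393 and 196 of 738 RPKM in Ctrl replicate 1. The 10 genes summed to 662 to 802 RPKM in Ctrl, 72.2 to 75.8 in Quad, 456 to 543 in Ctrl-D and 46.5 to 59.2 in QuadD. All 4 tracheal markers were called lower in both experiments, beside the same shares of 22.6% and 27.7% over all genes. They summed to 413 to 469 RPKM in Ctrl, 96.8 to 102 in Quad, 332 to 356 in Ctrl-D and 54.5 to 65.7 in QuadD. The Quad call of btl among them was lost without Quad replicate 1 or either Ctrl library. The part of these tissues in the fall of the 10 genes was not tested.

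Neural markers moved the other way. All 4 neuroblast markers were called higher in both experiments, with sums of 283 to 295 RPKM in Ctrl, 839 to 845 in Quad, 312 to 401 in Ctrl-D and 1099 to 1100.2 in QuadD. Of 5 neuronal markers, 2 were called higher in Quad and 5 in QuadD, and the Quad libraries differed from each other (504 and 313 RPKM in sum). Glial markers were called higher for 3 of 3 in Quad and 2 of 3 in QuadD. The Quad call of loco among them was lost under RLE scaling and under quantile normalization, leaving 2 of 3. Muscle markers were called lower for 2 of 4 in Quad and 4 of 4 in QuadD, and hemocyte markers for 2 of 2 tested in Quad and 1 of 2 in QuadD, where Hml was at or below 0.262 RPKM throughout. Early patterning genes, which are most active before the stages collected, were 3 higher and 1 lower of 6 in Quad and 2 higher and 3 lower in QuadD. All these counts stand beside shares over all genes of 22.6% lower and 24.9% higher in Quad, and 27.7% and 27.4% in QuadD. Single libraries moved the smaller counts: in Quad 5 neuronal markers were higher without Quad replicate 2 and 1 without either Ctrl library, and 4 muscle markers were lower without Quad replicate 1 and 1 without either Ctrl library. The count of hemocyte markers lower in Quad was 1 without either Ctrl library, that of early patterning genes lower in Quad was 2 without Quad replicate 2, and that of glial markers higher in QuadD was 1 without either QuadD library. For the germ line, 1 marker was higher in Quad without either Ctrl library, and 1 in QuadD without QuadD replicate 2 or Ctrl-D replicate 2. The part of these tissues and of embryo age in the result was not tested.

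**Figure D4:**
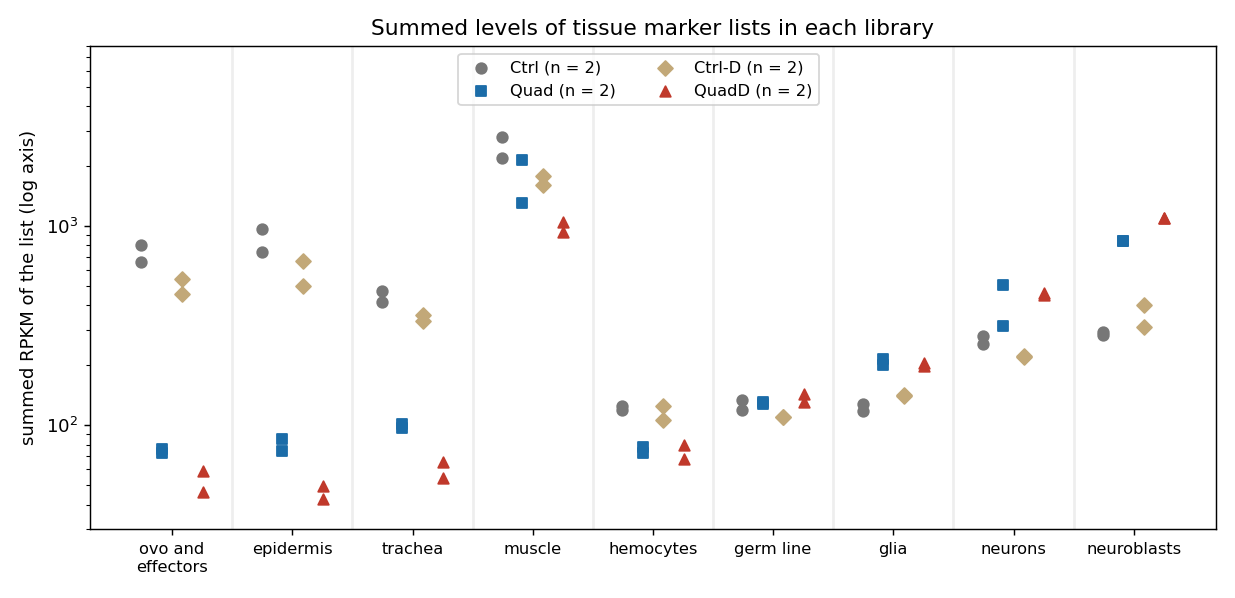
Summed RPKM (log axis) of ovo and its effectors and of each tissue marker list in each of the 8 libraries. The sums of the 10 genes and of the epidermis list lie lower in Quad and QuadD than in their controls, the neuroblast sums lie higher, and the germ line sums stay between 109.7 and 143.0 RPKM.

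The genes whose levels ran most like ovo over the 8 libraries were found by the root mean square difference of centred log2 values. The search covered 4737 genes that reached 10 RPKM in any library, and left out those whose symbol is only a CG or CR number. The closest was Ugt36Bc, a UDP-glycosyltransferase gene, at 0.0988, with 30.5 and 31.8 RPKM in Ctrl, 11.1 and 12.5 in Quad, 31.8 and 35.2 in Ctrl-D and 8.76 and 7.47 in QuadD. Next came SpdS (0.112), Rhp (0.143), fus (0.153) and ade5 (0.157). Of these, fus, an RNA-binding protein gene, was the second most abundant in Ctrl, with 79.3 and 78.6 RPKM in Ctrl and 20.5 and 23.1 RPKM in Quad. Of the effector genes, pio stood closest to ovo, at rank 63 (0.275), followed by mwh at rank 636. The other ZP genes and sha ran from rank 1331 (tyn) to rank 4621 (dyl). The measure weighs the size of a change, so a gene that fell in the same libraries but further than ovo ranked low. The gene f never reached 10 RPKM and was not ranked.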

How the data were processed

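RNA was sequenced as single reads of 50 bp from 8 whole-embryo libraries, 2 for each of 4 groups assigned from the labels. The authors deposited 1 table per experiment with linear total RPKM for 17321 genes, per the file headers. Per the file headers, further columns hold raw counts, but the deposited counts were 0 for most of the 10 genes while RPKM was high. The planned count test was therefore not run and RPKM was tested. A voom fit was made only on genes with complete counts, among the 10 genes m alone. The sources used here name no aligner, counting tool, genome build, annotation or strand setting. The lowest RPKM was 0.002 in the first table and 0.003 in the second.

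A gene entered a fit when 2 or more of its libraries reached 1 RPKM, and log2(RPKM + 1) was tested with limma 3.58.1 (trended moderated test) in R 4.3.3, with Benjamini-Hochberg adjustment over all genes tested at 0.05. Quad and QuadD were each fitted with their own control, and the difference of effects and Ctrl against Ctrl-D in 1 fit of all 8 libraries. In Quad, sha, cyr, dy and jv passed the filter through Ctrl alone, and in QuadD sha, m, dyl, cyr, dy, jv, knk and ple through Ctrl-D alone, so these had to differ. Intervals are 95%. The fit was run on simulated data as a check of the code. These had normal noise and far fewer changed genes than were called here, so they do not test the calls.

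Named were the 10 genes, the transgene genes, the further ZP genes, sn, WASp and y, up to 4 genes of each pathway list by smallest p among those called, and the 5 genes most like ovo. Others named were chosen after their values were seen. Members and lists were chosen with earlier results of these data known. The gene dp is listed in the files as dpy, and tal was counted by its row tal-1A. Alternatives were other pseudocounts, filters and scalings, no trend, a replicate block, and leaving out each library. Gene order and overlaps came from the Ensembl annotation in hand, whose build may differ from that of the files.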

Additional observations from a re-analysis of the deposited data

Results flagged for a closer look

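None of the 10 genes was flagged, and with 2 libraries a group no library could be tested as an outlier. Among the other genes followed, 7 had effects that differed between the experiments by limma's test of the difference, QuadD against Ctrl-D minus Quad against Ctrl. The Sox gene D differed by -1.54 ± 0.18 (limma adjusted p = 0.00258), and its driver-only controls differed as well, at 108 RPKM in Ctrl and 185 RPKM in Ctrl-D (limma adjusted p = 0.0315). The cuticle gene ect differed by -1.87 ± 0.30 (limma adjusted p = 0.0122), the secretion regulator CrebA by -0.79 ± 0.12 (limma adjusted p = 0.0112), and the tracheal receptor gene btl by -0.997 ± 0.20 (limma adjusted p = 0.0392), each lower in QuadD. For Kr the difference was -1.26 ± 0.20 (limma adjusted p = 0.0138), and for the early patterning gene run it was -0.84 ± 0.17 (limma adjusted p = 0.0360). The row tal-AA differed by 0.93 ± 0.19 (limma adjusted p = 0.0381), a smaller fall in QuadD, at 216 to 24.2 RPKM from Ctrl to Quad and 175 to 38.4 RPKM from Ctrl-D to QuadD.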

How the results depend on the processing

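All 10 genes were called lower in Quad under other pseudocounts, filters and scalings, without the variance trend, with the replicate block and in the fit of all 8 libraries, and 9 to 10 were called when a library was left out (limma, with the lone sample assumed to vary like the other group). In QuadD the count was 10 under these alternatives except 9 with a filter at 5 RPKM, which f misses, and 6 to 10 when a library was left out. Without Ctrl-D replicate 2, 7 of the 10 passed the filter and 6 were called. No gene changed direction in either experiment. Between Ctrl and Ctrl-D 0 to 1 genes were called when a library was left out, and the difference of effects was called for 0 in each alternative. Uncalled values changed sign in places. With a pseudocount of 0.1 the difference of effects of sha was -0.37, with a pseudocount of 5 those of m, dyl and nyo were 0.22, 0.45 and 0.019, and with quantile normalization that of neo was 0.064. When a library was left out, that of mwh ranged from -0.11 to 0.52, that of neo from -0.54 to 0.20 and that of tyn from -0.024 to 0.36, and pio ranged from -0.096 to 0.13 between Ctrl and Ctrl-D. The cause was not tested. Low genes depend on the pseudocount: sha in Quad ranged from -5.62 (0.1) to -2.84 (5). Quantile normalization moved the QuadD median of all genes by 0.11. Same-numbered libraries did not deviate together (r = -0.043 and -0.095 across genes), and with the replicate block the counts of the 10 genes called stayed at 10, 10, 0 and 0. Counts over all genes called moved more: 4956 in Quad became 2714 and 2444 without Ctrl replicate 1 and 2, 5618 in QuadD became 3741 and 3293 without QuadD replicate 1 and 2, 291 differences became 162 without a filter, 174 with the replicate block and 126 to 495 without single libraries, and 133 between controls became 55 without a filter, 30 without the trend and 4 to 983 without single libraries. The planned test on raw counts was not run. A voom fit on genes with complete counts, chosen after seeing the data, gave m -4.77 ± 0.26 in Quad and -5.97 ± 0.34 in QuadD. The list counts under other scalings and left-out libraries were also chosen after seeing the data.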
